A study of Danio rerio with 8 samples.

Results

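Keratin genes were followed through 8 messenger RNA libraries of sorted larval zebrafish eosinophils. The genes were taken by name from both expression tables: every row whose name starts with *krt*, and the rows *cyt1*, *cyt1l*, *icn* and *icn2*. The rule found 23 of 30838 rows in each table. Of these, 19 are keratins by name, *icn* and *icn2* (ictacalcins) belong to the S100 family of small calcium-binding proteins, and *krtcap2* and *krtcap3* carry the name keratinocyte-associated protein but are not keratins.

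The libraries came from 7 dpf (days post-fertilization) larvae of the AB strain that all carried *Tg(eslec:eGFP)*, in which a promoter fragment of the eosinophil gene *eslec* drives eGFP. About 500 eGFP+ cells were sorted for each library from digested whole larvae, so skin was part of the starting suspension. There were 2 libraries each of *cebp1*+/+, *cebp1*-/- (allele smu1), *cebpb*+/+ and *cebpb*-/- (allele szy7), and every replicate was a different pool of larvae. The study compared each mutant with its own wild type to find the genes that depend on the transcription factors Cebp1 and Cebpβ. Values are in TPM, a transcript level corrected for gene length whose total is fixed for each library. The depth behind them is unknown, and a row listed at 0 may be a failed estimate.

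Keratins are the intermediate filament proteins of epithelia. A filament is built from pairs of an acidic type I and a basic type II keratin, and layers of the skin are told apart by the pairs they use. The larval zebrafish epidermis has an outer periderm, in which *krt4*, *krt5*, *krt17*, *krt92*, *cyt1* and *cyt1l* are used as markers, and a basal layer marked by *krtt1c19e*. Keratins of the *krt8* and *krt18* kind belong to simple, single-layered epithelia. Eosinophils are granulocytes and are not defined by keratins.

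The tables behaved differently as a whole, which sets how keratin levels can be read. The *cebp1* row was at 0 in all 8 libraries, so it gave no check of the *cebp1* genotype. The *cebpb* row stood at 6360 and 5716 TPM in the *cebpb*+/+ pools and at 2928 and 1480 TPM in the *cebpb*-/- pools. *Eslec* itself (row *si:dkeyp-75b4.10*) was at 36138 and 31898 TPM in the *cebpb*+/+ pools and at 11658 and 17653 TPM in the *cebpb*-/- pools. Of the rows in the *cebp1* comparison, 87.2% to 88.1% were above 0, and the median row was at 6.95 and 5.43 TPM in the *cebp1*+/+ pools but 2.19 and 2.697 TPM in the *cebp1*-/- pools. Of those in the *cebpb* comparison, 39.3% to 50.3% were above 0. Because the tables were normalized separately, levels were compared only within a table. In sorted pools, fewer cells that express a gene and less RNA per cell cannot be told apart.

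The summed level of the 19 keratins separated the genotypes in both tables, in opposite directions. It was 306 and 1427 TPM in the *cebp1*+/+ pools against 39.3 and 51.4 TPM in the *cebp1*-/- pools. In the other table it was 19.3 and 98.5 TPM in the *cebpb*+/+ pools against 469 and 1596 TPM in the *cebpb*-/- pools. The lower *cebp1*+/+ library was thus 5.96 times above the higher *cebp1*-/- library, and the lower *cebpb*-/- library was 4.76 times above the higher *cebpb*+/+ library. These sums are of TPM as deposited and include shifts of the whole table. For the tests below, TPM were divided by 1.64 and 1.33 in *cebp1*+/+ and by 0.658 and 0.750 in *cebp1*-/-. The divisors were 0.845 and 0.907 in *cebpb*+/+ and 1.36 and 1.21 in *cebpb*-/-. Such scaling would narrow both ratios. Keratins were a small part of each library, at most 0.160% of all TPM. With 2 libraries against 2, an exact two-sided permutation test cannot give a p below 0.33, so these sums are a description.

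**Figure D1:**
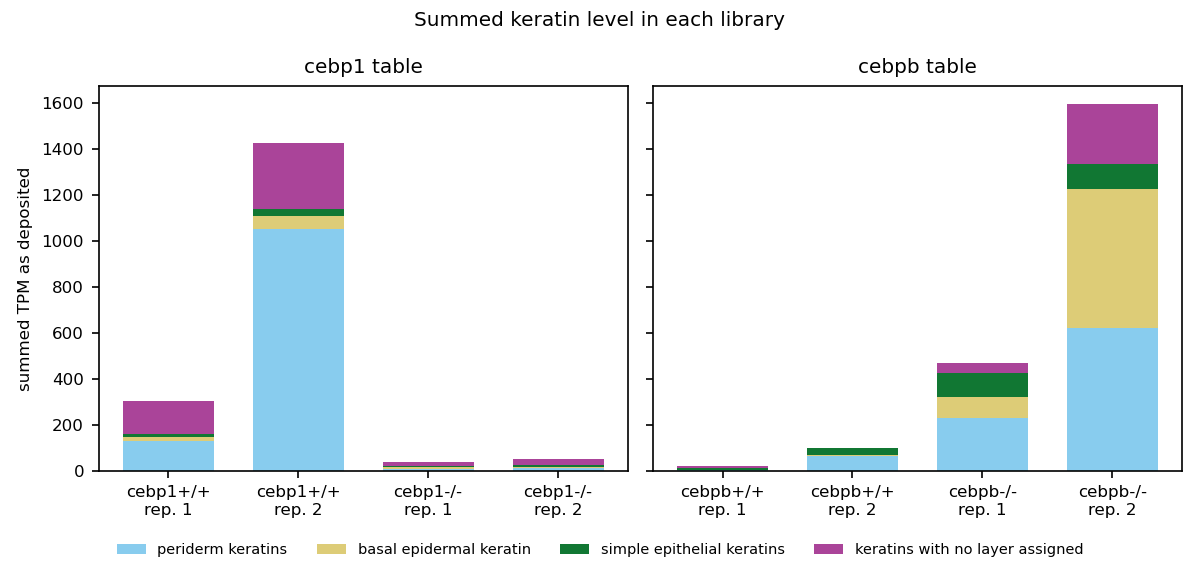
Stacked bars of the summed TPM as deposited of the 19 keratins in each of the 8 libraries, from 0 on a linear axis, split into periderm, basal, simple-epithelium and unassigned keratins. The bars reach 306 and 1427 TPM for cebp1+/+ and 469 and 1596 TPM for cebpb-/-, and stay below 100 TPM in the other 4 libraries.

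The wild-type pools did not give the same keratin level. Replicate 2 of *cebp1*+/+ held 4.66 times the keratin TPM of replicate 1, and replicate 2 of *cebpb*+/+ held 5.09 times that of its replicate 1. The *cebp1*-/- libraries were closer, at a ratio of 1.31, and the *cebpb*-/- libraries differed by a ratio of 3.40. Of 16 keratins above 0 in both *cebp1*+/+ libraries, 11 were higher in replicate 2 and 6 differed by over 4 times, where 8.84% of all rows did. In *cebpb*-/-, 8 of 9 keratins were higher in replicate 2 and 4 differed by over 4 times, where 27.0% of all rows did. The libraries of a genotype therefore differed in keratin content, and this spread enters every test below.

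The periderm keratins made up most of the difference between the *cebp1*+/+ pools. Their sum was 128 and 1053.5 TPM in the *cebp1*+/+ pools and 9.54 and 12.1 TPM in the *cebp1*-/- pools. Type I *cyt1* was the highest keratin of the *cebp1*+/+ libraries, at 64.1 and 476 TPM, against 1.28 and 3.55 TPM in the *cebp1*-/- pools. It alone held 21.0% and 33.4% of the keratin TPM of the wild-type libraries. *Krt17*, its neighbour in the genome, was at 18.03 and 241 TPM in the *cebp1*+/+ pools and at 2.72 and 2.27 TPM in the *cebp1*-/- pools. *Cyt1l* was at 13.6 and 181 TPM in the *cebp1*+/+ pools and at 1.43 and 3.47 TPM in the *cebp1*-/- pools. Their type II partner *krt4* was at 22.6 and 133 TPM in the *cebp1*+/+ pools and at 1.62 and 1.05 TPM in the *cebp1*-/- pools. For all these genes both wild-type libraries lay above both mutant libraries, as they did in TPM for 61% of all genes tested, and replicate 2 was the higher wild-type library. *Krt92* behaved in the same way at a lower level, at 9.43 and 21.5 TPM against 2.49 and 1.73 TPM, while *krt5* stayed at or below 0.135 TPM in every library of the table.

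In *cebpb*-/- only some periderm keratins were high, and within the periderm group *krt4* and *krt5* were those whose genotypes lay furthest apart. *Krt4* was at 3.34 and 18.9 TPM in the *cebpb*+/+ pools and at 178 and 498 TPM in the *cebpb*-/- pools. *Krt5* was listed at 0 in both *cebpb*+/+ libraries and was at 7.70 and 23.4 TPM in the *cebpb*-/- pools. The genotypes did not overlap for either gene, and 30.9% of all genes tested were higher in the mutant without overlap in TPM. *Cyt1* was at 1.69 and 26.2 TPM in the *cebpb*+/+ pools and at 40.01 and 47.9 TPM in the *cebpb*-/- pools, so its mutant libraries were the higher ones but close to the second wild-type library. *Cyt1l* overlapped between the genotypes, at 0 and 6.12 TPM against 1.33 and 53.1 TPM. *Krt17* overlapped too, at 0 and 12.96 TPM against 5.40 and 0.171 TPM, and *krt92* was at 0 in all libraries of this table. The periderm sum was 5.03 and 64.1 TPM in the *cebpb*+/+ pools and 232 and 622 TPM in the *cebpb*-/- pools, and *krt4* gave most of the latter.

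The basal keratin *krtt1c19e* showed the widest range of any keratin in the *cebpb* table. It was at 0 and 3.86 TPM in the *cebpb*+/+ pools and at 88.1 and 604 TPM in the *cebpb*-/- pools, where it ranked 254th of all rows in replicate 2. In the *cebp1* table it was at 19.5 and 58.1 TPM in the *cebp1*+/+ pools and at 5.10 and 4.20 TPM in the *cebp1*-/- pools. The genotypes did not overlap in either table, where 61% of all genes tested were lower in this way for *cebp1* and 30.9% higher for *cebpb*. *Krtt1c19e* supplied 18.8% and 37.9% of the keratin TPM of the *cebpb*-/- libraries.

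The simple-epithelium keratin *krt8*, of type II, was at 14.4 and 27.8 TPM in the *cebp1*+/+ pools and at 8.34 and 8.36 TPM in the *cebp1*-/- pools. It was at 8.15 and 29.7 TPM in the *cebpb*+/+ pools and at 107 and 109 TPM in the *cebpb*-/- pools. *Krt8* was nearly equal between the mutant pools of each table, and it gave 21.2% and 16.3% of the small keratin total of *cebp1*-/-. The row named *krt18*, the usual type I partner, was at 0 in all 8 libraries, as was *krt15*. Another row, *zgc:77517*, carries the current name *krt18b* and lies outside the naming rule. It was at 35.1 and 39.1 TPM in the *cebp1*+/+ pools, 10.9 and 8.96 TPM in the *cebp1*-/- pools, 41.9 and 93.7 TPM in the *cebpb*+/+ pools, and 174 and 104 TPM in the *cebpb*-/- pools. Rows whose current names are *krt18a.2*, *krt98* and *krt99* were at 0 throughout. In all, 2106 rows (6.83%) were at 0 in every library, among them *epcam* and *cldn7b*, 2 epithelial markers named here for being at 0.

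The other 10 keratins have no layer assigned here, and *krt91* was the most abundant of them in the *cebp1*+/+ and *cebpb*-/- libraries. It was at 53.5 and 196 TPM in the *cebp1*+/+ pools and at 2.16 and 3.0 TPM in the *cebp1*-/- pools. In the other table it was at 0.103 and 0.885 TPM in the *cebpb*+/+ pools and at 39.1 and 258 TPM in the *cebpb*-/- pools. No library of one genotype reached the other in either table. Without overlap in TPM, 61% of all genes tested were lower for *cebp1* and 30.9% were higher for *cebpb*. *Krt94* was at 28.9 and 36.2 TPM in the *cebp1*+/+ pools and at 0.838 and 6.51 TPM in the *cebp1*-/- pools, and at 0 in the *cebpb* table. The wild-type libraries of this gene lay close together, unlike those of the periderm keratins. *Krt97* (17.4 and 15.6 TPM against 2.03 and 1.64 TPM) and *krt1-c5* (10.03 and 9.82 TPM against 2.81 and 3.20 TPM) were likewise even between the *cebp1*+/+ pools. For *cebpb*, *krt97* was above 0 only in replicate 1 of each genotype, at 5.63 and 2.37 TPM, and *krt1-c5* did not exceed 0.068 TPM. The remaining members without a layer, *krt93*, *krt95*, *krt96*, *krt222* and *krt1-19d*, stayed below 15 TPM in every library.

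**Figure D2:**
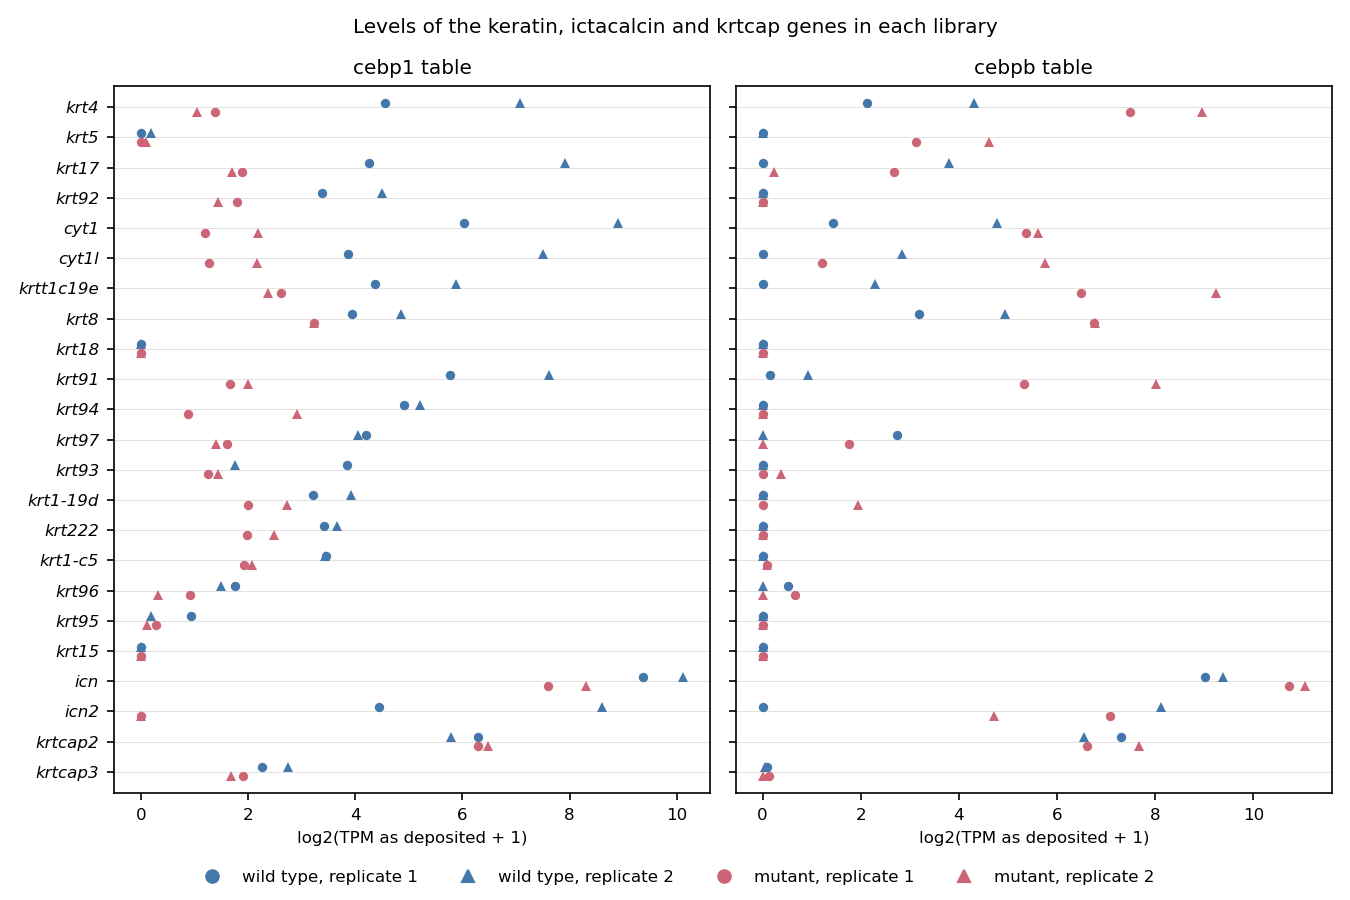
Level of each of the 23 genes as log2(TPM as deposited + 1), 1 panel per table, with wild type in blue, mutant in red, replicate 1 as circles and replicate 2 as triangles. The cebp1-/- points of cyt1, krt91 and krt4 lie left of both cebp1+/+ points, and the cebpb-/- points of krt4, krtt1c19e, krt8 and krt91 lie right of both cebpb+/+ points.

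Keratin composition was described by the ratio of type I to type II genes, read within each table. Of the named keratins, *krt1-19d*, *krtt1c19e*, *krt92*, *cyt1l*, *cyt1*, *krt17* and *krt91* lie next to each other in the RefSeq annotation of the assembly GRCz12tu, with no other protein-coding gene between them, and belong to type I. Their summed level was 186 and 1188 TPM in the *cebp1*+/+ pools and 174 and 966 TPM in the *cebpb*-/- pools. Type II (*krt4*, *krt5* and *krt8*) summed to 37.0 and 161 TPM in the *cebp1*+/+ pools and to 292 and 630 TPM in the *cebpb*-/- pools. The ratio of these type I to type II genes was 5.03 and 7.36 in *cebp1*+/+, 1.83 and 2.52 in *cebp1*-/-, 0.156 and 1.03 in *cebpb*+/+, and 0.595 and 1.53 in *cebpb*-/-. The ratios of the *cebp1* genotypes did not overlap, and those of the *cebpb* genotypes did. Those of *cebp1*-/- rest on low levels, with type I medians of 2.49 and 3.47 TPM and type II medians of 1.62 and 1.05 TPM. The median row of these libraries was at 2.19 and 2.697 TPM, so the lower ratios cannot be read as a change of composition. How reads shared by related neighbours were assigned is not stated, so the split among *cyt1*, *cyt1l*, *krt17*, *krt91* and *krt92* is less certain than their sum.

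Few keratins ranked high in the *cebpb*+/+ and *cebp1*-/- libraries. At or above the 90th percentile of all rows stood 3 and 8 of the 19 keratins in *cebp1*+/+ and 0 in both *cebp1*-/- libraries. The counts were 0 and 2 in *cebpb*+/+ and 5 and 6 in *cebpb*-/-. *Krt91* went from percentiles 96.4 and 99.0 in *cebp1*+/+ to 49.6 and 53.6 in *cebp1*-/-, the middle of the table.

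Genotypes were tested gene by gene with limma on log2 of scaled TPM plus 1, where scaling set the median gene of each library level within a table. Scaling moved the log2 fold change of highly expressed genes by 1.06 in the *cebp1* table and by -0.55 in the *cebpb* table, so values with TPM as deposited are given beside the main ones. In *cebp1*-/- against *cebp1*+/+, 15 of 19 keratins averaged 1 scaled TPM or more and were tested, *krt96* only through its wild-type level. All 15 log2 fold changes were negative, with a median of -1.66 (-2.63 as deposited). Over the 19 tested members of all kinds the median was -1.44, against -0.06 for all genes tested, and as deposited it was -2.31 against -0.90. These members include *icn2*, which like *krt96* passed the filter only through its wild-type level. Scaled levels did not overlap and were lower in *cebp1*-/- for 11 keratins, where 23.3% of all genes did so. At an unadjusted p under 0.05, 9 keratins were lower and 0 higher, where 4.91% of genes were lower.

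After adjustment by Benjamini and Hochberg over 25203 genes, *krt91* was the only member called, where 1.41% of genes were called, 0.127% lower and 1.28% higher. Its log2 fold change was -3.93 (SE 0.67, limma adjusted p = 0.0427, n = 2 and 2), and -4.86 as deposited (adjusted p = 0.0408), where 0.114% of genes were called lower. The call rested on all 4 libraries: with any 1 of them left out its adjusted p ran from 0.123 to 0.524, its log2 fold change from -4.93 to -2.81, and no gene of the table was called. With pseudocount 5 (adjusted p = 0.0518), pseudocount 0.1 (0.0526) no filter on low values (0.0770) or no mean-variance trend (0.205) it also missed the threshold.

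The periderm keratins missed the threshold with large estimates and wide errors. *Cyt1* had a log2 fold change of -4.87 (SE 0.92, limma adjusted p = 0.0557) and *krt4* of -3.75 (SE 0.83, limma adjusted p = 0.0828). The estimate was -3.37 for *krt17* (SE 1.08), -3.08 for *cyt1l* (SE 1.09) and -1.44 for *krt92* (SE 0.58), with limma adjusted p from 0.206 to 0.306. Basal *krtt1c19e* stood at -1.66 (SE 0.61, limma adjusted p = 0.267). *Krt94* at -2.29 (SE 0.69) and *krt97* at -1.75 (SE 0.45) had limma adjusted p of 0.181 and 0.123. *Krt8* stood at -0.18 (SE 0.49, limma adjusted p = 0.897) once scaled and at -1.17 as deposited, where the median gene stood at -0.90. The other keratins tested, *krt1-c5*, *krt93*, *krt1-19d*, *krt222* and *krt96*, lay between -0.66 and -0.28 scaled, again near the bulk of the table.

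In *cebpb*-/- against *cebpb*+/+, 9 of 19 keratins were tested, *krt91* and *krt5* only through the mutant libraries and *krt97* only through wild type. None of them was called, and limma called 0 of 11478 genes (0%), with 704 genes higher and 924 lower (8.05%) at an unadjusted p under 0.05. The estimates were 6.31 on the log2 scale for *krtt1c19e* (SE 1.261, limma adjusted p = 0.166), 5.74 for *krt91* (SE 1.11, limma adjusted p = 0.166) and 4.49 for *krt4* (SE 0.91, limma adjusted p = 0.170). *Krt8* stood at 2.17 (SE 0.66, limma adjusted p = 0.264) and *cyt1* at 1.89 (SE 1.15, limma adjusted p = 0.534). At an unadjusted p under 0.05, 5 keratins were higher and 0 lower, where 6.13% of genes were higher. Scaled levels were higher in *cebpb*-/- without overlap for 6 keratins, where 21.1% of genes were. Both counts include *krt91* and *krt5*, whose direction the filter set. The median over the 12 members tested, these genes and *krt97* included, was 1.83, against -0.03 for all genes tested. As deposited it was 2.23 against 0.46. *Cyt1l* (1.76, SE 1.83), *krt17* (-0.72, SE 1.64) and *krt97* (-0.74, SE 1.37) had errors near or above their estimates.

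The fits share no library, so the difference between them could be tested directly, as the *cebp1* effect minus the *cebpb* effect in 1 model of all 8 libraries. It was called for 3 of 11 members tested in both tables, all with a lower *cebp1* effect, where 0.739% of 11360 genes were called in that direction and 6.83% in either. For *krt91* the difference was -9.67 on the log2 scale (SE 1.43, limma adjusted p = 0.00597). For *krt4* it was -8.23 (SE 1.46, limma adjusted p = 0.0125), and for *krtt1c19e* -7.97 (SE 1.58, limma adjusted p = 0.0202). *Cyt1* stood at -6.76 (SE 1.72, limma adjusted p = 0.0530), *krt8* at -2.35 (SE 0.90, limma adjusted p = 0.167) and *krt17* at -2.65 (SE 2.22, limma adjusted p = 0.526). As deposited, 6 members were called, where 3.53% of genes were called in that direction: *krt91*, *krt4*, *krtt1c19e*, *cyt1*, *krt8* and *icn*. *Krt91* passed the filter on low values for *cebpb* only through the mutant libraries, where it is high. Its difference was called under all 16 settings run, the one without a filter among them, that of *krt4* under 12 and that of *krtt1c19e* under 9. With *cebp1*-/- replicate 1, *cebp1*-/- replicate 2 or *cebpb*+/+ replicate 1 left out, *krt91* was the only member called.

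**Figure D3:**
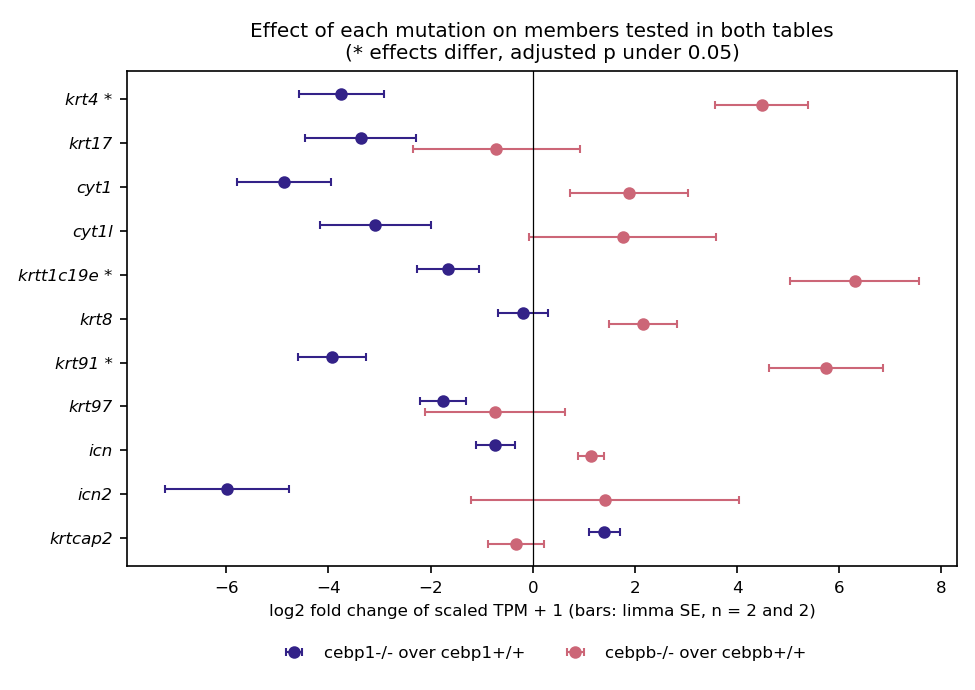
Log2 fold change of scaled TPM + 1, mutant over wild type, for the 11 genes tested in both tables, with bars of 1 SE from limma and 2 libraries per genotype; stars mark the 3 genes whose effects differed. The cebp1 points run from krtcap2 at 1.40 to the far left, where icn2 rests on mutant libraries listed at 0, and the cebpb points reach 6.31 for krtt1c19e.

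In TPM, *icn* stood above every keratin in each of the 8 libraries. *Icn* was at 664 and 1111 TPM in the *cebp1*+/+ pools and at 192 and 316 TPM in the *cebp1*-/- pools. It was at 514 and 668 TPM in the *cebpb*+/+ pools and at 1695 and 2119 TPM in the *cebpb*-/- pools. In TPM the genotypes did not overlap in either table, where 61% of all genes tested were lower in this way for *cebp1* and 30.9% higher for *cebpb*. Once scaled they overlapped for *cebp1*. The log2 fold change was -0.73 (SE 0.39, limma adjusted p = 0.441) for *cebp1* and 1.14 (SE 0.25, limma adjusted p = 0.182) for *cebpb*, and their difference of -1.87 had a limma adjusted p of 0.0679. *Icn2* was uneven between pools, at 20.8 and 388 TPM in the *cebp1*+/+ pools and listed at 0 in both *cebp1*-/- libraries (limma adjusted p = 0.0661). For *cebp1* it passed the filter on low values only through the wild-type libraries, so the filter set its direction. With *cebpb* it overlapped between the genotypes, at 0 and 277 TPM against 134 and 25.4 TPM. *Icn* thus remained high in the libraries where *icn2* was at 0.

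Of the *krtcap* genes, *krtcap2* did not follow the keratins. *Krtcap2*, which encodes a subunit associated with the oligosaccharyltransferase complex of the endoplasmic reticulum, was at 77.3 and 54.4 TPM in the *cebp1*+/+ pools and at 77.5 and 88.6 TPM in the *cebp1*-/- pools. Its scaled log2 fold change was 1.40 (SE 0.31, limma adjusted p = 0.0822) and 0.35 as deposited. For *cebpb* it was at 156 and 93.0 TPM against 96.1 and 203 TPM, with overlap. *Krtcap3* did not exceed 5.73 TPM in any library. For *cebp1* it was lower in the mutant without overlap in TPM, at 3.79 and 5.73 TPM against 2.75 and 2.22 TPM, as 61% of all genes tested were. Once scaled it overlapped, with a log2 fold change of 0.11 (-0.71 as deposited).

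Epidermal genes that are not keratins were summed in each library as well. The lists held 9 basal and 10 periderm genes, 19 in all. Their sum was 212 and 231 TPM in the *cebp1*+/+ pools and 50.7 and 51.7 TPM in the *cebp1*-/- pools. In each of these libraries 18 or 19 of them were above 0, where 87.2% to 88.1% of all rows were. That sum was thus even between the *cebp1*+/+ pools, whose keratin sums differed 4.66 times, but its parts were less so. In these pools the periderm part was 94.0 and 129 TPM and the basal part 118 and 101 TPM. Single genes went both ways: *col7a1* was at 21.6 and 8.93 TPM, while *anxa1c* and *epgn*, given next, were higher in replicate 2. The most abundant periderm marker, *anxa1c* (annexin A1c), was at 32.6 and 56.3 TPM in the *cebp1*+/+ pools and at 3.62 and 3.35 TPM in the *cebp1*-/- pools (log2 fold change -2.34, SE 0.48, limma adjusted p = 0.0679). The most abundant basal marker, *epgn* (epigen, a growth factor), was at 31.7 and 50.9 TPM against 6.45 and 3.09 TPM (log2 fold change -1.93, SE 0.53, limma adjusted p = 0.149). These 2 genes had the most negative estimates of their lists. The median was -0.37 over the 9 periderm genes tested, 7 of them negative, and -0.67 over the 8 basal genes tested, 7 of them negative, and *col17a1b* stood at 0.19. As deposited the medians were -1.11 and -1.60, where that of all genes was -0.90. The median row of the mutant pools, 2.19 and 2.697 TPM against 6.95 and 5.43 TPM, was lower too. None of these genes was called, where 1.41% of all genes were. As deposited *anxa1c* was called lower, where 0.114% of all genes were.

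In the *cebpb* table these markers did not separate the genotypes as the keratins did. Their sum was 7.37 and 38.9 TPM in the *cebpb*+/+ pools and 36.7 and 15.3 TPM in the *cebpb*-/- pools, with 7 and 14 of 19 above 0 in wild type and 12 and 9 in the mutant. The periderm part of it was 33.0 and 0.134 TPM in the *cebpb*-/- pools, so that the library with the highest keratin sum, replicate 2, had the periderm markers at or near 0. *Cldne*, *anxa1c* and *lye* were each listed at 0 in that library. Only 39.3% of all rows were above 0 there, against 46.3% to 50.3% in the other libraries of the table, so a 0 was common for low genes. The basal part was 3.67 and 15.1 TPM in the *cebpb*-/- pools, of which *col17a1a* gave 10.3 TPM in replicate 2. Keratin TPM per TPM of these 19 markers was 1.45 and 6.18 in *cebp1*+/+, 0.774 and 0.993 in *cebp1*-/-, 2.62 and 2.53 in *cebpb*+/+, and 12.8 and 105 in *cebpb*-/-. Within the *cebpb* table both mutant libraries thus lay above both wild-type libraries in keratin TPM per marker TPM. The value of 105 rests on a marker sum of 15.3 TPM, of which *col17a1a* gave 10.3 TPM. Whether skin cells in the sort or transcription in the sorted cells gave the keratin values was not tested.

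**Figure D4:**
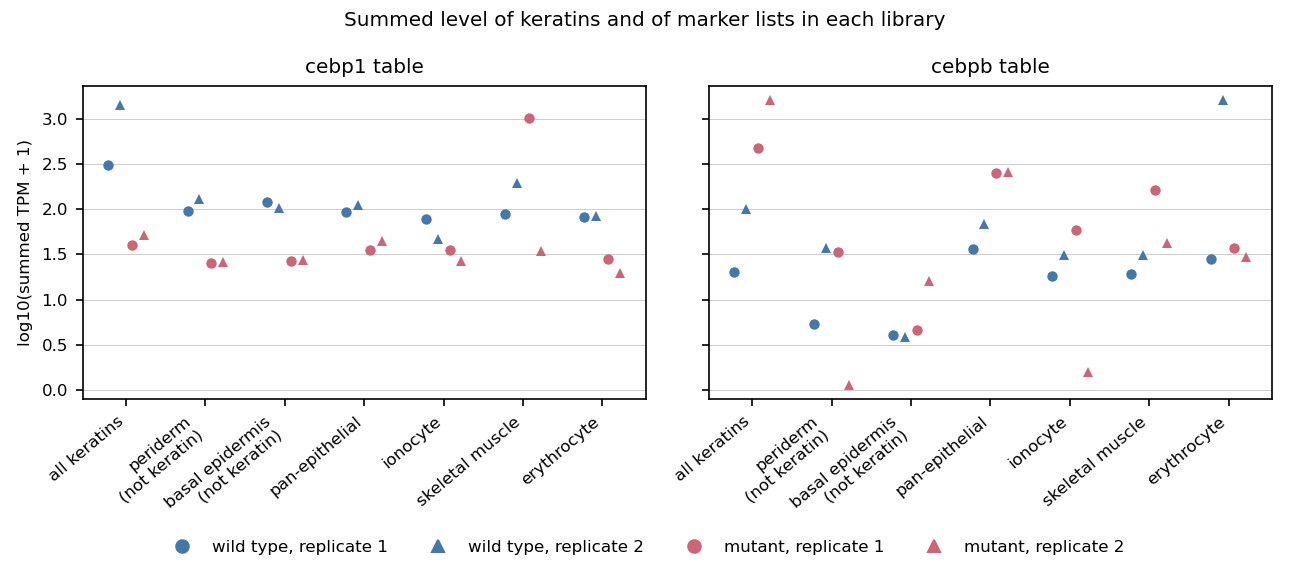
Summed level of the keratins and of 6 marker lists in each library, as log10(summed TPM + 1), with wild type in blue, mutant in red, replicate 1 as circles and replicate 2 as triangles. In the cebpb panel the keratins of mutant replicate 2 lie highest of the 4 libraries, at 1596 TPM, while its periderm list without keratins lies lowest, at 0.134 TPM.

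Other epithelial genes were mixed. The pan-epithelial list summed to 91.5 and 111 TPM in the *cebp1*+/+ pools, 34.3 and 43.1 TPM in the *cebp1*-/- pools, 35.3 and 67.5 TPM in the *cebpb*+/+ pools, and 250.0 and 258 TPM in the *cebpb*-/- pools. *Cdh1*, the E-cadherin gene, gave most of it for *cebpb*: 30.1 and 58.2 TPM in the *cebpb*+/+ pools and 233 and 214 TPM in the *cebpb*-/- pools (log2 fold change 1.84, SE 0.42, limma adjusted p = 0.189). No gene of this list was called in either table. The ionocyte list summed to 76.2 and 45.3 TPM in the *cebp1*+/+ pools, 34.4 and 25.8 TPM in the *cebp1*-/- pools, 17.1 and 30.5 TPM in the *cebpb*+/+ pools, and 57.8 and 0.595 TPM in the *cebpb*-/- pools. Those 2 *cebpb*-/- values lay on either side of wild type, and the keratins of the same libraries were both high. In the *cebpb* table the list followed 1 gene, *atp1b1b*, at 17.1 and 30.3 TPM in wild type and at 55.3 and 0 TPM in the mutant. The sums there thus describe that gene rather than ionocyte markers as a set.

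Markers of other tissues were lower in *cebp1*-/- as well, muscle excepted. The liver list summed to 483 and 213 TPM in the *cebp1*+/+ pools and to 86.4 and 110 TPM in the *cebp1*-/- pools. Of its 9 genes only *fabp10a*, a liver fatty acid-binding protein gene, was called (log2 fold change -2.92, SE 0.53, limma adjusted p = 0.0488). Over all genes 0.127% were called lower. With TPM as deposited *fabp10a* was not called. It was named after its values were seen. The erythrocyte list stood at 79.9 and 82.7 TPM against 27.1 and 18.8 TPM, the neutrophil list at 38.5 and 32.9 TPM against 12.4 and 10.5 TPM, and the macrophage list at 46.0 and 23.7 TPM against 11.5 and 10.1 TPM. Like the keratin sum, these sums did not overlap between the *cebp1* genotypes, and the median row was lower in the same mutant pools. After scaling, the median log2 fold change was -0.42 over 9 liver, -0.37 over 6 erythrocyte, -0.63 over 3 neutrophil and -0.56 over 3 macrophage genes tested, beside -1.66 over the 15 keratins tested and -0.06 over all genes. The skeletal muscle list summed to 88.3 and 192 TPM in the *cebp1*+/+ pools and to 1010 and 33.8 TPM in the *cebp1*-/- pools, so that its highest value fell in a library with few keratin transcripts. In the *cebpb* table it was at 18.5 and 30.5 TPM in wild type and at 163 and 41.4 TPM in the mutant. There the erythrocyte list reached 1595 TPM in *cebpb*+/+ replicate 2 and lay between 26.9 and 35.9 TPM in the other 3 libraries. That pool was also the wild-type *cebpb* library with the higher keratin sum. The eosinophil list of 8 genes was higher in *cebp1*-/- (26322 and 29194 TPM) than in *cebp1*+/+ (14722 and 17194 TPM), and 7 of its genes were called higher, where 1.28% of all genes were. As deposited, 0 of them were called. In *cebpb*-/- the list sum was lower (23928 and 30807 TPM against 56084 and 50873 TPM). After scaling all 8 estimates were negative, with a median of -1.08, and none was called. As deposited the median was -0.53 and 0 were called, where the median gene stood at 0.46. In TPM *gata2a*, *fcer1gl* and *xbp1* overlapped between the *cebpb* genotypes. The rest of the list was lower without overlap, as 15.4% of all genes tested were. The list holds *eslec*, *gata2a*, *fcer1gl*, *cxcr4b*, *agr2*, *pdia2*, *xbp1* and *cebpb*. *Eslec* alone gave 36138 and 31898 TPM of the *cebpb*+/+ sums. *Cebpb* is the gene mutated in that comparison. It was also among the 7 called for *cebp1*, where the study had already reported it higher in *cebp1*-/- eosinophils. These counts thus rest partly on results known beforehand. In both tables the genotype with the higher sum of the eosinophil list was the one with the lower keratin sum, and the part of either in the other was not tested.

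Among the other intermediate filament genes and their linkers, 25 of 28 listed genes had a row. None was called in either table, of 24 tested for *cebp1* and 12 for *cebpb*. For *cebp1*, 7 estimates were positive and 17 negative, with a median of -0.23, near that of all genes. For *cebpb*, 8 were positive and 4 negative, with a median of 1.35. Several of the positive genes passed the filter only through the mutant libraries, and some of the negative ones only through wild type. The filter set the direction of those genes, so this count and median rest partly on it. *Vim*, the vimentin of mesenchymal and blood cells, passed the filter only through the mutant libraries and was at 0.156 and 0.149 TPM in the *cebpb*+/+ pools and at 37.1 and 28.8 TPM in the *cebpb*-/- pools (log2 fold change 4.495, SE 0.83, limma adjusted p = 0.166). The nuclear lamin gene *lmnb2* was at 19.0 and 15.9 TPM against 136 and 198 TPM (log2 fold change 2.63, SE 0.46, limma adjusted p = 0.166). The replicates of both genes lay closer together than the *cebpb*-/- replicates of *krt4* or *krtt1c19e*.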

How the data were processed

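Levels of messenger RNA were measured in 8 libraries made by a modified Smart-seq2 protocol. Reads were aligned by the authors (STAR, GRCz11) and assigned to genes with featureCounts, and TPM were deposited in 1 table per mutation. Gene lengths and the annotation are not given in the sources used here. All 8 columns were used. TPM keep no depth, so no counting error was given.

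Within a table, the deposited TPM were scaled by the median of ratios over genes detected in all 4 libraries that averaged 1 TPM or more. Genes averaging 1 scaled TPM or more were tested with limma 3.58.1 (R 4.3.3) on log2(scaled TPM + 1) with a mean-variance trend, two-sided, with Benjamini-Hochberg adjustment over all genes tested and a threshold of 0.05. Fold changes on this scale understate changes of low genes. The test was also run on simulated data. Their noise was drawn from variances fitted by limma, changes were planted only in genes of higher level, and no filter was applied. That run therefore cannot judge the calls of low or filtered genes. The study's DESeq2 needs counts and was not run. Over all genes tested, the deviations of same-numbered libraries were not correlated (0.0081 and -0.019), so the main fits used no pairing. Whether single genes share a replicate effect was not tested.

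The genes and lists were chosen with earlier results of these data known. All 23 genes were accounted for. Values in every library were printed for genes averaging 20 TPM or more in a genotype and for called genes, and up to 3 genes of another list were named by mean TPM. The eosinophil list was named in full. All 23 names were matched to RefSeq. The alternatives were TPM as deposited, other scaling genes, pseudocounts 0.1 and 5, other filters, no trend, a replicate block and leaving out each library. Plots were made in Python 3.11.15 (matplotlib 3.10.9).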

Additional observations from a re-analysis of the deposited data

Results flagged for a closer look

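For 3 keratins the change with *cebp1* mutation differed from the change with *cebpb* mutation in the test of the difference itself (limma, 8 libraries, 2 per genotype, *cebp1* effect minus *cebpb* effect on the log2 scale). The difference was -9.67 for *krt91*, -8.23 for *krt4* and -7.97 for *krtt1c19e*. In all 3 genes both *cebp1*-/- libraries lay below both *cebp1*+/+ libraries, and both *cebpb*-/- libraries lay above both *cebpb*+/+ libraries. Over all genes tested, 61% were lower without overlap in TPM for *cebp1* and 30.9% were higher for *cebpb*. The 3 genes were picked by a call on these same values. Of the 16 settings run, *krt4* was called under 12 and *krtt1c19e* under 9. *Krt91* passed the filter on low values for *cebpb* only through the mutant libraries, and its difference was also called without a filter.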

How the results depend on the processing

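Numbers of called genes moved with the settings more than directions did. For *cebp1*, 1 of the 23 genes was called in the main analysis, 0 with pseudocount 5, without a filter or without a trend, and 6 with a filter at 10 scaled TPM, among them *krtcap2*, which was higher. Pseudocount 0.1 gave 1 as well, but *icn2*, which passed the filter only through wild type, in place of *krt91*. Leaving out any library gave 0 to 0, with 0 calls in the whole table. The median log2 fold change of -1.44 moved to -2.31 as deposited, -2.37 with scaling on genes of at least 50 TPM, -0.73 without a filter and -3.08 with a filter at 10, and ran from -1.91 to -0.92 with a library left out. Over all genes 323 were called higher and 32 lower, against 16 and 29 as deposited and 11 and 29 with scaling on genes of at least 50 TPM. The counts were 194 and 18 with pseudocount 0.1, 1126 and 57 of 6307 genes with a filter at 10, and 0 without a filter or trend. For *cebpb*, 0 of the genes was called under every setting but the block, and the median of 1.83 ran from 0.97 to 3.42 with a library left out. The difference test called 3 genes in the main analysis, 6 as deposited, 5 with scaling on genes of at least 50 TPM, 5 with a filter at 10, 1 without a trend, and 1 to 5 with a library left out, a setting chosen after seeing the data. Over all genes it called 692 higher and 84 lower of 11360, against 106 and 407 of 11536 as deposited. With scaling on genes of at least 50 TPM it called 137 and 304 of 11487. The counts were 938 and 101 of 4140 with a filter at 10, and 70 and 24 of 11360 without a trend.

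The sources do not say whether same-numbered libraries were paired. The keratin sum was higher in replicate 2 of every genotype, by 4.66 and 1.31 times in *cebp1*+/+ and *cebp1*-/- and by 5.09 and 3.40 times in *cebpb*+/+ and *cebpb*-/-. With a replicate block 4 genes were called for *cebp1* (*krt4*, *icn2*, *cyt1* and *krt91*) and 2 for *cebpb* (*krt4* and *krtt1c19e*). Of these, *icn2* passed the filter for *cebp1* only through wild type. Over all genes the block called 338 higher and 49 lower of 25203 for *cebp1*, and 12 higher and 17 lower of 11478 for *cebpb*.

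Directions reversed only for genes without a call. For *cebp1*, *krtcap3* went to -0.71 as deposited and -0.77 with scaling on genes of at least 50 TPM. With a library left out, *krtcap3* ran from -0.21 to 0.46, *krt93* from -1.46 to 0.19, *krt1-19d* from -0.72 to 0.22 and *krt8* from -0.75 to 0.42. For *cebpb*, *krtcap2* went to 0.21 as deposited and ran from -0.93 to 0.30 with a library left out. The range was -2.74 to 5.63 for *icn2*, -0.48 to 3.98 for *cyt1l* and -2.77 to 1.29 for *krt17*. The difference of *krt97* ran from -1.74 to 0.53. The cause was not tested. Beyond these reversals (16 values), 460 values for single genes kept direction and side of the threshold, 25 came to pass it and 19 ceased to.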
